A study of Mus musculus with 12 samples.

Results

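The genes examined were the flavin monooxygenases Fmo1, Fmo2, Fmo4 and Fmo5 and the aldehyde oxidases Aox1 and Aox3, taken by gene name from a liver expression table, 6 genes of 55487. Liver RNA was sequenced from 12 mice in 3 groups of 4, with 1 library per liver. The Control group received normal saline, the MTP group received triptolide (TP) at 300 μg/kg, and the MTP + CR group received TP at 300 μg/kg together with crocin (CR) at 100 mg/kg. All doses were given by oral gavage for 7 days to healthy young adult male mice of the Kunming stock, which is outbred, so that the livers of a group differ in genotype. TP is a diterpenoid of the thunder god vine that blocks transcription through a subunit of the general factor TFIIH, and CR is a carotenoid of saffron. There was no group given CR alone, and both comparisons that involve TP alone use the same 4 MTP livers.

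Flavin monooxygenases sit in the membrane of the endoplasmic reticulum, hold FAD, draw electrons from NADPH and add an oxygen atom to the nitrogen or sulfur of drugs, amines and thiols. Aldehyde oxidases are cytosolic enzymes with FAD, iron-sulfur clusters and a molybdenum cofactor, and they oxidise aldehydes and nitrogen-containing aromatic rings with oxygen taken from water. Together they form a route of drug oxidation in the liver that does not use cytochrome P450.

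Depth was 15509226 to 18430566 counts a library. Levels are given as CPM (counts relative to library size, scaled with TMM factors) for comparisons of 1 gene between livers and as the deposited FPKM, which is per gene length, for comparisons between genes. Calls come from the quasi-likelihood (QL) test of edgeR over 15197 genes, and required more than 1.5-fold change together with a Benjamini-Hochberg adjusted p below 0.05. All 6 genes passed the filter on low counts. Among livers of 1 group, the counts of MTP 4 and MTP 1 and those of Control 2 and Control 3 were the least alike. The 820 genes called in MTP vs Control became 2009 without MTP 4 and 244 to 497 without Control 1, Control 3, Control 4, MTP 1 or MTP 3. Without the TMM factors, the all-gene median of the log2 fold changes moved from 0.02 to 0.50 in MTP vs Control and from −0.03 to −0.54 in MTP + CR vs MTP, so values on that scale are read against these shifts. Xist had 72 to 152 counts in MTP 1, MTP 2 and MTP 3 and at most 8 in the other livers, while the Y-linked gene Ddx3y had 635 to 1687 counts in all 12 livers. The Y-linked genes Eif2s3y, Kdm5d and Uty had 574 to 1041, 68 to 318 and 89 to 419 counts. In MTP 1, MTP 2 and MTP 3, Ddx3y had 1081, 1687 and 910 counts and Eif2s3y 1041, 764 and 681. Kdm5d had 292, 286 and 318 counts there, and Uty 419, 350 and 387. All mice are described as male, and whether RNA of a female animal entered these 3 libraries was not tested.

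In Control livers, Fmo5 and Aox3 were the most abundant of the 6 RNAs per length, at 75.3 ± 15.2 and 62.9 ± 33.0 FPKM (mean ± SD, n = 4), and their ranges overlapped. Fmo1 followed at 15.6 ± 3.94 FPKM and Aox1 at 11.8 ± 6.04 FPKM, again with overlapping ranges. Fmo4 at 2.01 ± 0.74 FPKM and Fmo2 at 1.22 ± 0.576 FPKM were the lowest, and these ranges overlapped as well. In the MTP group, Fmo5 at 123 ± 18.4 FPKM stood apart from all others, and Fmo1, Aox3 and Aox1 overlapped at 9.68 ± 6.12, 7.66 ± 5.91 and 6.90 ± 2.14 FPKM. In the MTP + CR group, Aox3 was again the RNA next to Fmo5, at 48.8 ± 26.4 and 103 ± 42.8 FPKM, with ranges that overlapped.

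**Figure D1:**
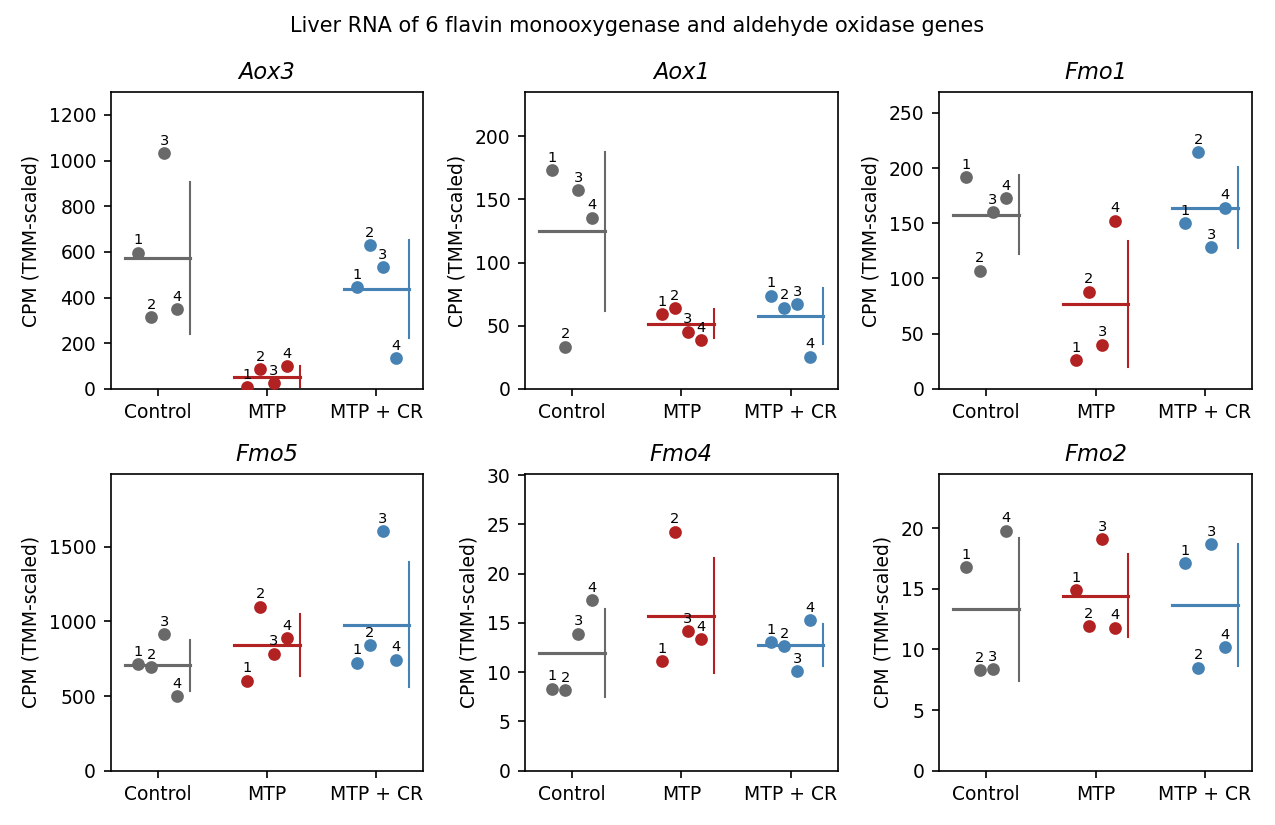
CPM (TMM-scaled, linear axes from 0) of each gene in the 12 livers; numbers are the livers' replicate numbers, horizontal bars the group means and vertical bars ± 1 SD (n = 4). All 4 MTP livers lie at or below 98.4 CPM for Aox3, under every Control liver and every MTP + CR liver, whereas the groups overlap for the other 5 genes.

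Aox3, the aldehyde oxidase with the most RNA in Control livers, was the gene of the 6 that passed the test. Its gene lies on chromosome 1, from 58113130 to 58200698 on the plus strand of mm10. The 4 Control livers had 597, 313, 1032 and 349 CPM, the 4 MTP livers 7.22, 87.2, 24.1 and 98.4 CPM, and the 4 MTP + CR livers 446, 629.8, 534 and 134 CPM. Every MTP liver lay below every liver of both other groups, with MTP 1 and MTP 3, which are among the 3 libraries with Xist counts, the lowest and MTP + CR 4 the closest from above, while the Control and MTP + CR groups overlapped. In MTP vs Control, Aox3 was 10.6-fold lower (log2 fold change −3.40, standard error 0.75, QL adjusted p = 0.0218). In MTP + CR vs MTP it was 8.05-fold higher (log2 fold change 3.01, standard error 0.73, QL adjusted p = 0.0282). Both comparisons gave p = 0.0286 in a two-sided exact permutation test of log2(CPM + 1), the smallest that 4 against 4 can give. Between MTP + CR and Control the log2 fold change was −0.39 with a 95% interval of −1.85 to 1.07, so a fall or a rise of up to about these sizes could not be told from no difference.

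Of 15197 genes tested, 67 had a lower log2 fold change than Aox3 in MTP vs Control, and 72 had a higher one in MTP + CR vs MTP. Aox3 was the only gene of the 6 called in MTP vs Control, where 5.40% of all genes were called, and the only one called in MTP + CR vs MTP, where 12.4% were called. None of the 6 was called by edgeR or by DESeq2 in MTP + CR vs Control, where edgeR called 1.33% of all genes. Of the 6, only Aox1 had an unadjusted p under 0.05 there, as did 22.0% of all genes. In TMM-scaled CPM, Aox3 was also the only 1 of the 6 whose groups did not overlap, lower in MTP than in Control (7.71% of all genes) and higher in MTP + CR than in MTP (6.92% of all genes). In FPKM, which carries no TMM factor, Fmo5 and Fmo4 each had 1 further pair of groups without overlap, given with those genes. The share of all genes without overlap was not counted in FPKM. Without TMM factors the all-gene median was 0.50 in MTP vs Control and −0.54 in MTP + CR vs MTP, so these pairs are not read as results about the 2 genes.

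The Aox3 calls depended on single livers. In MTP vs Control the call was lost without Control 1 (log2 fold change −3.39), Control 3 (−2.96) or MTP 3 (−3.15). For MTP + CR vs MTP it was lost without MTP 1 (2.64), MTP 3 (2.76), MTP + CR 1 (3.00) or MTP + CR 3 (2.90). The direction was the same without any 1 of the 12 livers, and without MTP 4 the values were −3.87 and 3.48, both called. Over all genes, 2009 and 4009 were called without MTP 4.

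**Figure D2:**
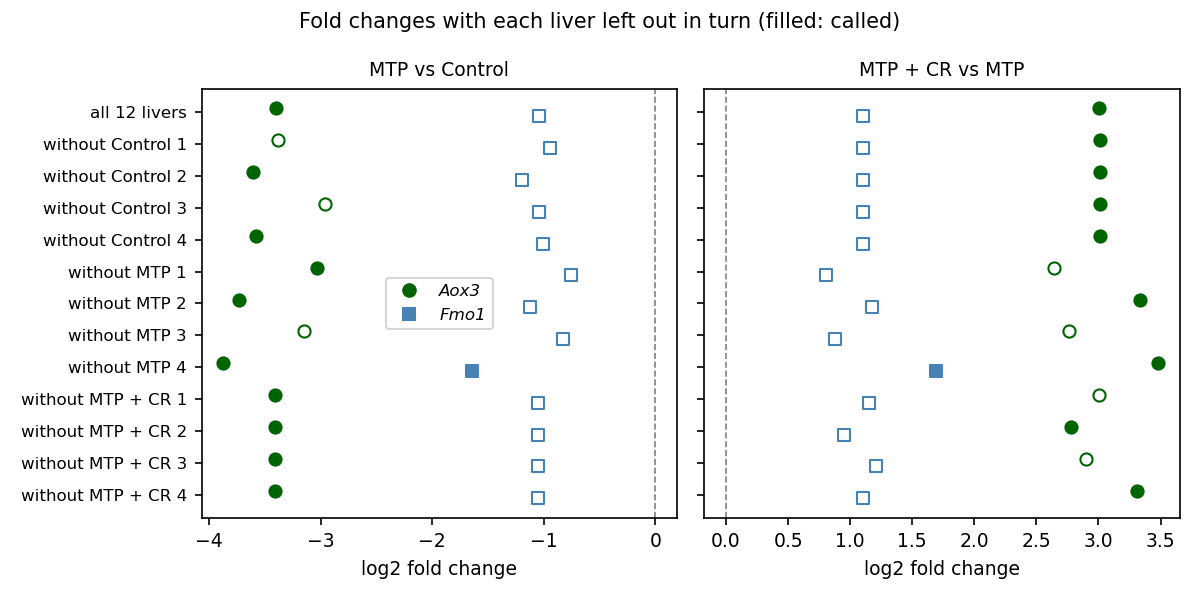
Log2 fold changes of Aox3 (circles) and Fmo1 (squares) with all 12 livers and with each liver left out in turn, for MTP vs Control and MTP + CR vs MTP; filled symbols passed the test and open symbols did not. Aox3 stays between −3.87 and −2.96 and between 2.64 and 3.48, and Fmo1 passed in both comparisons only without MTP 4.

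Aox1, the neighbouring aldehyde oxidase, did not pass the test in any comparison. It lies upstream of Aox3 in the same orientation, from 58029931 to 58106413 on the plus strand of chromosome 1, with 6716 bases between the genes. Control livers had 173, 33.5, 157 and 136 CPM, MTP livers 59.2, 63.8, 45.3 and 38.8 CPM, and MTP + CR livers 73.9, 64.4, 67.1 and 25.6 CPM. Control 2 lay below all 4 MTP livers and the other 3 Control livers above them, so the groups overlapped. The log2 fold change was −1.27 in MTP vs Control (95% interval −2.21 to −0.33, QL adjusted p = 0.102), and −1.59 with a call without Control 2. Aox1 had 51.8 ± 11.7 CPM in the MTP group and 57.7 ± 21.8 CPM in the MTP + CR group, a log2 fold change of 0.16 (95% interval −0.77 to 1.08), or −0.35 under total-count scaling. Against Control the MTP + CR group gave −1.11 (QL adjusted p = 0.165).

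The ratio of Aox3 to Aox1 FPKM within a library does not depend on how libraries are scaled. It was 4.07, 11.0, 7.74 and 3.03 in the Control livers, 0.144, 1.61, 0.627 and 2.99 in the MTP livers, and 7.12, 11.5, 9.39 and 6.19 in the MTP + CR livers. Aox1 RNA thus exceeded Aox3 RNA in MTP 1 and MTP 3 and in no other liver. MTP 4 lay closest to the Control range, just under Control 4, and all MTP + CR livers were above all MTP livers. Aox3 made up 83.9 ± 7.54% of the summed FPKM of both genes in Control livers, 46.9 ± 27.4% under MTP and 89.0 ± 2.66% under MTP + CR. The summed FPKM was 74.7 ± 36.7, 14.6 ± 4.91 and 54.2 ± 28.4. The ratio and the shares are descriptions and were not tested.

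**Figure D3:**
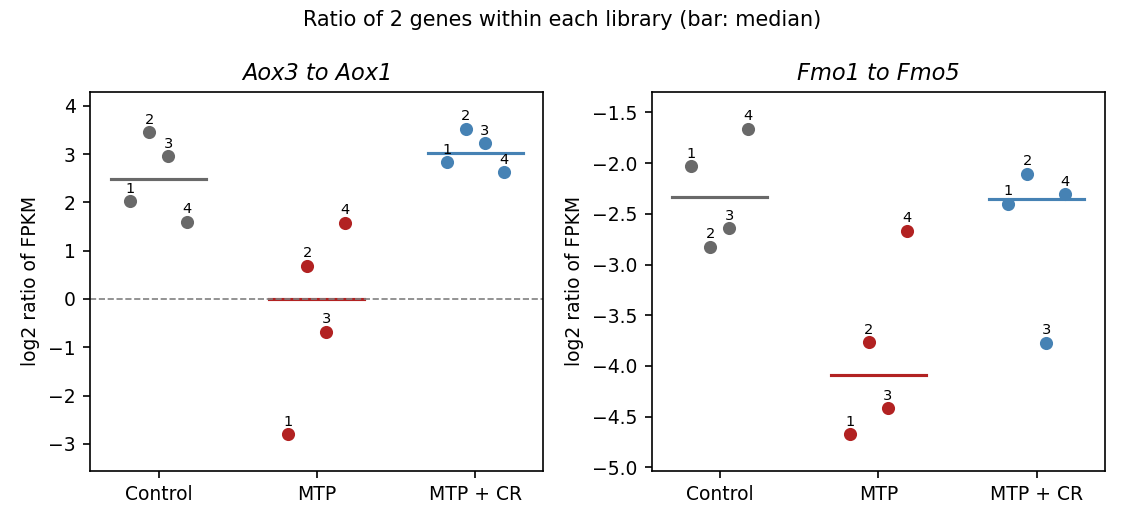
Log2 ratio of FPKM of Aox3 to Aox1 and of Fmo1 to Fmo5 within each library; points are livers with their replicate numbers and bars are group medians. The Aox3 to Aox1 ratio is below 0 on this scale in MTP 1 and MTP 3 only, and MTP 4 is the highest MTP liver in both panels.

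The bases just upstream of both aldehyde oxidase genes are shown because the neighbours share orientation and family, while Aox3 passed the test in both comparisons with TP alone and Aox1 in neither. They are the RefSeq reference of GRCm38.p6, not sequence of Kunming mice, from chr1:58029719-58029930 for Aox1 and chr1:58112886-58113129 for Aox3, both on the plus strand and ending at the base before the annotated start. Capitals mark matches on either strand to a set of 11 motifs.
Aox1: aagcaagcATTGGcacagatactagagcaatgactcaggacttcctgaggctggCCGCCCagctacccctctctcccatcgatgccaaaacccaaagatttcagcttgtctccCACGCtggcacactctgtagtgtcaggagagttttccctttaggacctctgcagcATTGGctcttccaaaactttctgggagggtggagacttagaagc
Aox3: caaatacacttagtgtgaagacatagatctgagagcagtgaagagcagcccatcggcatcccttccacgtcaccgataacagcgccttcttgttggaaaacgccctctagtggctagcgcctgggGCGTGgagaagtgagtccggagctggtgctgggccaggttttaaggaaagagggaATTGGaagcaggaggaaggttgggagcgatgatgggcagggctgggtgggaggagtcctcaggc
In Aox1 the capitals are 2 CCAAT boxes (CCAAT, read as ATTGG on the printed strand), 1 GC box (GGGCGG, read as CCGCCC) and 1 core of the dioxin response element (GCGTG, read as CACGC). In Aox3 they are 1 dioxin response element core and 1 CCAAT box, and no matches overlapped. Of 32851 RefSeq windows cut to the Aox1 length, 30.1% held a CCAAT box, 27.2% a GC box and 24.1% the dioxin response element core. At the Aox3 length the shares were 33.4% for the CCAAT box and 27.6% for the dioxin response element core. The other 8 motifs were in neither window: the core of the antioxidant response element (TGACNNNGC, 8.30% of windows at the Aox1 length), the STAT5 site (TTCNNNGAA, 6.04%), the TATA box (TATAAA, 9.64%), the E-box (CACGTG, 4.74%), the cyclic AMP response element (TGACGTCA, 1.05%), the D-box (TTATGTAA, 0.715%) and the longer DR1 element (0.0304%) and HNF1 site (0.00913%). A match describes these letters and says nothing of a factor being there. Of the 6 genes, 5 had an entry in the promoter table.

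Sequence that could let reads pass from one gene to another was counted. No 50-base stretch of any GENCODE transcript of the 6 genes occurred in a transcript of another of the 6 or of Fmo6, Fmo9, Aox2 or Aox4. None of the 7029 stretches of Aox3 occurred in any other gene, and 0.612% of those of Aox1 did. For Fmo1 the share was 7.02%, in transcripts of 26 genes outside the family.

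**Figure D4:**
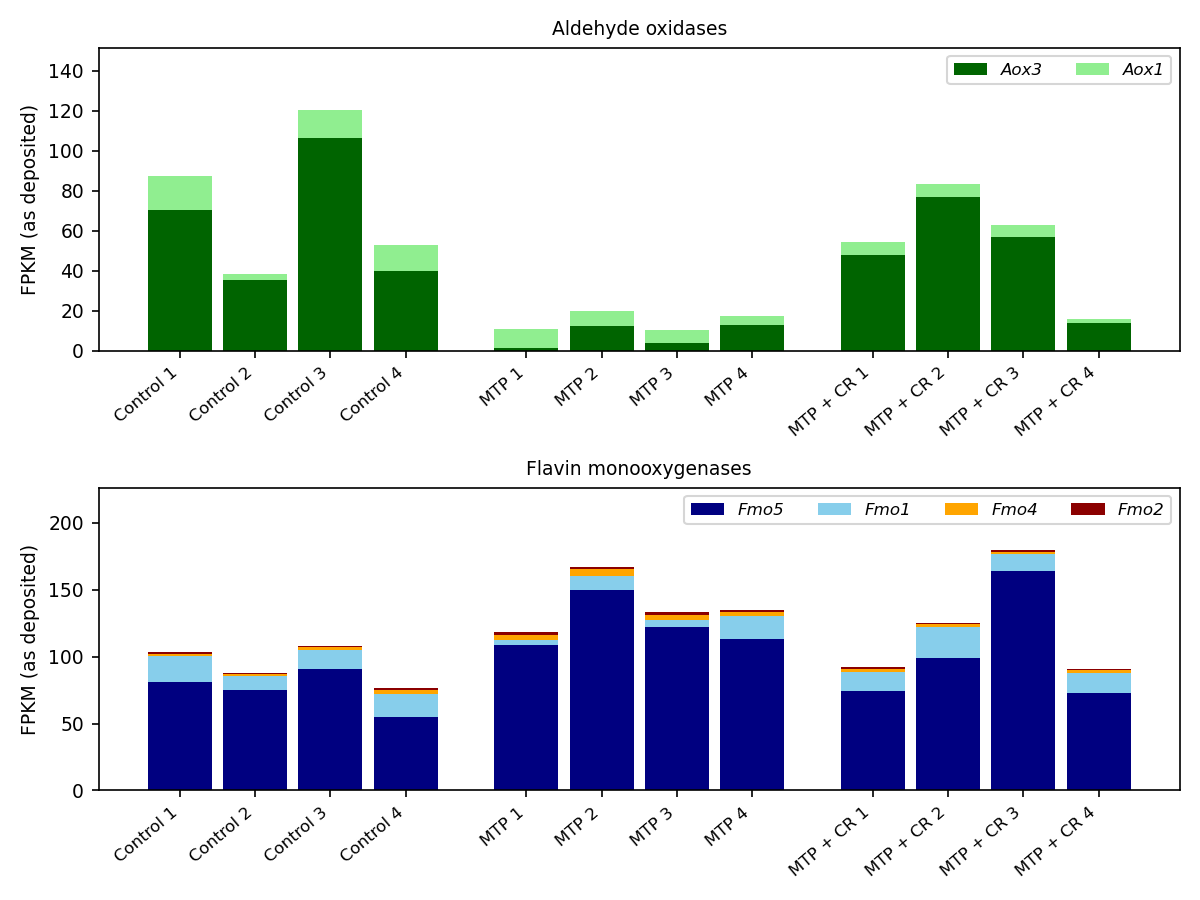
Deposited FPKM of the aldehyde oxidases (top) and flavin monooxygenases (bottom) in each liver, stacked by gene, with axes from 0. Aldehyde oxidase RNA sums to 10.1 to 20.0 FPKM in MTP livers, almost all flavin monooxygenase RNA is Fmo5 followed by Fmo1, and MTP + CR 3 has the most Fmo5.

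Fmo1, which oxidises a broad range of amines and sulfur compounds and is expressed in mouse liver and kidney, was lower in 3 of 4 MTP livers but did not pass the test. It lies on the minus strand of chromosome 1, from 162829561 to 162866610. Control livers had 191, 107, 160.3 and 172 CPM, MTP livers 25.8, 88.0, 40.1 and 152 CPM, and MTP + CR livers 149.8, 214, 128 and 164 CPM. In TMM-scaled CPM, MTP 1, MTP 2 and MTP 3 lay below all 8 livers of the other groups, and MTP 4 lay among them. In FPKM, MTP 2 at 10.98 lay above Control 2 at 10.61. The 3 low livers are also those with 72 to 152 Xist counts, and MTP 4 had 6. The log2 fold change was −1.04 in MTP vs Control (standard error 0.44, QL adjusted p = 0.174) and 1.10 in MTP + CR vs MTP (standard error 0.44, QL adjusted p = 0.0998). Without MTP 4 they were −1.64 (QL adjusted p = 0.0192) and 1.69 (QL adjusted p = 0.00988), both called. Leaving out MTP 4 also raised the genes called over all genes, from 820 to 2009 and from 1892 to 4009. Down-weighting unlike livers in limma-voom also called both, at −1.60 and 1.55, among 2662 and 3228 genes called. Under total-count scaling the values were −0.69 and 0.72, neither called, beside all-gene medians of 0.50 and −0.54. With TMM factors, MTP + CR vs Control gave 0.06 (95% interval −0.88 to 0.99).

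Fmo5, a form known for Baeyer-Villiger oxidation of ketones and for its high level in liver, was the flavin monooxygenase with the most RNA in all 12 livers. It is the only 1 of the 6 genes away from chromosome 1, on chromosome 3 from 97628804 to 97655282 on the plus strand. Control livers had 716, 695, 915 and 499 CPM, MTP livers 604, 1098, 785 and 887 CPM, and MTP + CR livers 724, 843, 1603 and 745 CPM. The groups overlapped in all comparisons, and MTP + CR 3 was the highest of the 12 livers. Log2 fold changes were 0.26 (95% interval −0.44 to 0.95) in MTP vs Control, 0.22 (−0.48 to 0.91) in MTP + CR vs MTP and 0.47 (−0.22 to 1.17) in MTP + CR vs Control. In deposited FPKM, which carries no TMM factor, the MTP livers at 109 to 149.5 lay above the Control livers at 54.7 to 90.7. Under total-count scaling the log2 fold change was 0.71 (QL adjusted p = 0.0972), beside a shift of 0.50 in the median of all genes.

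Fmo5 made up 79.6 ± 6.48% of the summed FPKM of the 4 flavin monooxygenases in Control livers, 89.1 ± 3.64% under MTP and 82.9 ± 5.77% under MTP + CR (n = 4 each). Fmo1 made up 16.8 ± 4.88%, 6.91 ± 4.38% and 14.2 ± 5.14%. The ratio of Fmo1 to Fmo5 was 0.141 to 0.316 in Control livers and 0.0393, 0.0734 and 0.0468 in MTP 1, MTP 2 and MTP 3. MTP 4 at 0.158 lay within the Control range, and MTP + CR 3 at 0.0733 lay with the lower MTP livers. The summed FPKM of the 4 genes was 94.1 ± 14.5, 138 ± 20.6 and 122 ± 41.6 in the 3 groups.

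**Figure D5:**
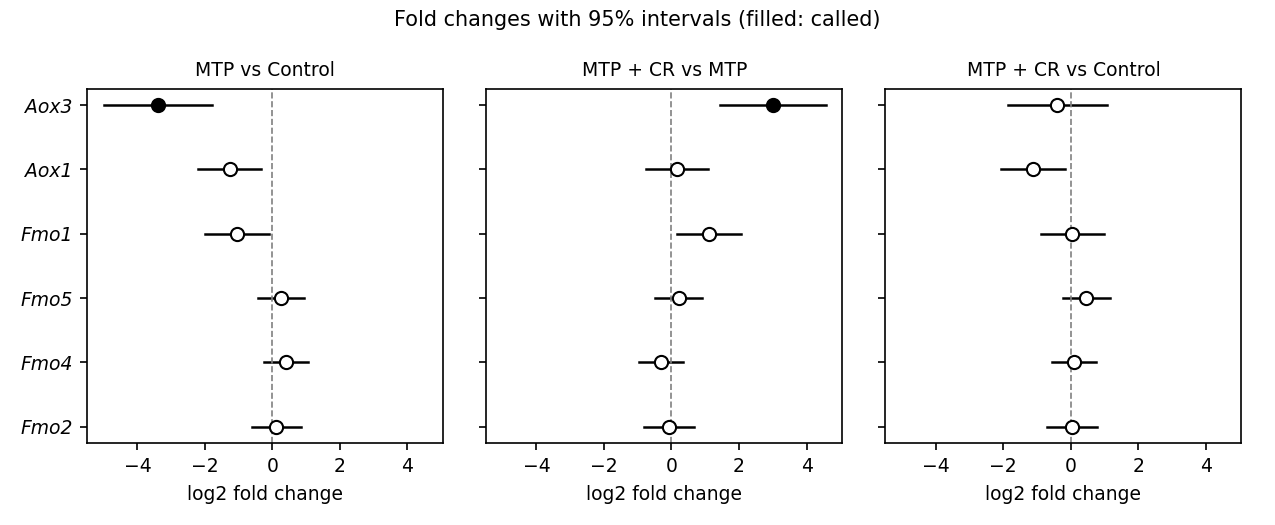
Log2 fold changes of the 6 genes with 95% intervals derived from edgeR's quasi-likelihood test and not adjusted over genes. Filled points passed the test and open points did not. Only Aox3 is filled, at −3.40 in MTP vs Control and 3.01 in MTP + CR vs MTP, and the intervals of Fmo5, Fmo4 and Fmo2 cross 0 in all 3 comparisons.

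Fmo4 and Fmo2 were the low flavin monooxygenases. Fmo4, a little-studied form, lies on the minus strand of chromosome 1 from 162793188 to 162813972. Its levels were 8.33, 8.15, 13.9 and 17.3 CPM in Control livers, 11.1, 24.3, 14.1 and 13.3 CPM in MTP livers, and 13.1, 12.7, 10.1 and 15.3 CPM in MTP + CR livers. The groups overlapped in CPM, with MTP 2 the highest liver. In FPKM the MTP livers at 2.68 to 5.22 lay above the MTP + CR livers at 1.63 to 2.36. Without TMM factors the median of all genes was −0.54 in MTP + CR vs MTP. The log2 fold changes of Fmo4 were 0.40 (95% interval −0.25 to 1.05) in MTP vs Control, −0.30 (−0.95 to 0.36) in MTP + CR vs MTP and 0.10 (−0.55 to 0.76) in MTP + CR vs Control.

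Fmo2, the main form of lung in many mammals, lies on the minus strand of chromosome 1 from 162874317 to 162898726. Its levels were 16.8, 8.29, 8.38 and 19.8 CPM in Control livers, 14.9, 11.9, 19.1 and 11.8 CPM in MTP livers, and 17.1, 8.48, 18.7 and 10.2 CPM in MTP + CR livers. The groups overlapped and none stood apart, with Control 4 the highest liver. Its log2 fold changes were 0.12 (95% interval −0.62 to 0.85), −0.08 (−0.82 to 0.65) and 0.03 (−0.70 to 0.77) in MTP vs Control, MTP + CR vs MTP and MTP + CR vs Control. The 3 lung markers Sftpc, Sftpb and Scgb1a1 summed to at most 0.171 CPM in any liver. Under total-count scaling the MTP vs Control values of Fmo4 and Fmo2 were 0.85 and 0.60, still not called.

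The 6 genes varied to different extents among livers of 1 group. In the MTP group the highest Aox3 level was 13.6 times the lowest and the highest Fmo1 level 5.90 times the lowest, against 1.65 times for Aox1 and 1.82 times for Fmo5. In the Control group the order differed, with 5.17 times for Aox1, 3.30 times for Aox3 and 1.79 times for Fmo1. Across the 12 livers, log2(CPM + 1) of Fmo1 and Aox3 gave a Pearson r of 0.89 and a Spearman rho of 0.73. Aox3 and Aox1 gave 0.47 and 0.67. No other pair of the 6 exceeded an r of 0.29, which Fmo2 and Aox1 gave, or a rho of 0.42, which Fmo1 and Aox1 gave. These are descriptions over livers that share 3 group means.

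The family members Fmo6, Fmo9, Aox2 and Aox4 had 2, 0, 46 and 5 counts summed over the 12 livers and did not pass the filter on low counts.

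Calls among genes that supply the cofactors of both families are read against the 5.40% of all genes called in MTP vs Control and the 12.4% called in MTP + CR vs MTP. Of 6 genes of molybdenum cofactor synthesis, needed by aldehyde oxidases, none was called in MTP vs Control (median −0.25 on the log2 scale, against 0.02 over all genes). The only call in MTP + CR vs MTP was a rise of Mocs2, a subunit of molybdopterin synthase (59.0 ± 8.32 to 97.9 ± 12.7 CPM, log2 fold change 0.73, QL adjusted p = 0.0290). That call was lost without MTP 1, MTP 3, MTP + CR 1 or MTP + CR 3. None of 4 other molybdenum enzymes was called, among them Xdh, the xanthine oxidoreductase related to aldehyde oxidases (log2 fold change 0.21 and −0.96), and Mtarc1, an amidoxime reductase of mitochondria (−0.19 and 1.11). None of 5 genes of riboflavin uptake and FAD synthesis was called either, such as Flad1, the FAD synthase (−0.29 and 0.72), and Slc25a32, the mitochondrial carrier for folate and FAD (0.56 and −0.61).

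On the side of NADPH, which flavin monooxygenases use, 1 of 8 gene rows (7 genes, Nnt having 2 identifiers) was called. G6pdx, the entry enzyme of the pentose phosphate pathway, rose from 10.1 ± 1.35 CPM in Control to 60.6 ± 37.5 CPM in MTP livers (log2 fold change 2.58, QL adjusted p = 0.0182) and fell to 14.2 ± 12.6 CPM in MTP + CR livers (−2.10, QL adjusted p = 0.0302). The first call was lost without Control 1, Control 3, MTP 1 or MTP 3, and the second without MTP 1, MTP 3, MTP + CR 1, MTP + CR 3 or MTP + CR 4. Of 11 other flavin and electron transfer enzymes, 1 was higher and 1 lower in MTP vs Control (median −0.36). Por, which feeds electrons to cytochrome P450, rose from 129.6 ± 22.6 to 435 ± 73.2 CPM (log2 fold change 1.75, QL adjusted p = 0.0105), a call kept without any 1 liver. Cyb5b, the mitochondrial cytochrome b5, fell by 1.35 on the log2 scale, with the call lost without Control 1, Control 3, MTP 1 or MTP 3. Cyb5r3, the cytochrome b5 reductase, was the 1 gene of the list called in MTP + CR vs MTP (log2 fold change 0.91), a call lost without any 1 of 6 livers. Por was the 1 called in MTP + CR vs Control (1.65), and that call was lost without any 1 of 7 livers.

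Of 17 regulators of liver drug oxidation genes, 1 was called in each comparison that involves TP alone, where 5.40% and 12.4% of all genes were called. Nr1i2, the xenobiotic receptor PXR, was higher in MTP than in Control livers (104 ± 19.9 against 55.7 ± 9.32 CPM, log2 fold change 0.91), but the call held in only 3 of 12 fits that left out 1 liver. Cebpa, a factor of mature hepatocytes, was higher in MTP + CR than in MTP livers (389.6 ± 74.7 against 135.8 ± 49.4 CPM, log2 fold change 1.52, QL adjusted p = 0.0157), and that call was lost without MTP 1 or MTP 3. The list's medians were −0.16 and 0.05. Of 10 genes listed around substrates and products of these enzymes, some with at most an indirect tie to them, Pemt alone was called. Pemt, which makes phosphatidylcholine by methylation, went from 264 ± 42.8 CPM in Control to 55.8 ± 57.7 CPM in MTP and 290.4 ± 82.6 CPM in MTP + CR livers (log2 fold changes −2.24 and 2.38). These calls held in 3 and 7 of 12 fits that left out 1 liver.

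By the rule for likeness, the 3 genes whose log2(CPM + 1) followed Aox3 most closely over the 12 livers were Hsd3b2 (Pearson r 0.98), a hydroxysteroid dehydrogenase, F11, coagulation factor XI (0.98), and Rufy3 (0.97). For Fmo1 they were Klkb1, plasma prekallikrein (0.98), Serpina6, corticosteroid-binding globulin (0.97), and Ngef (0.97). Hsd3b2 had group means of 129.8, 9.03 and 90.2 CPM, and Klkb1 420.1, 112 and 408 CPM. The best matches were weaker for Aox1 (Zfp455, r = 0.93), Fmo4 (Hibch, r = 0.93), Fmo2 (Rnf114, r = 0.85) and Fmo5 (Nat8f1, r = 0.83). Differences between the 3 groups enter these correlations, which describe these 12 livers only.

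Some markers of cell types moved with the groups. The 6 hepatocyte markers, none of them at 0 in any group, summed to 72538 to 153130 CPM in Control, 35039 to 55055 CPM in MTP and 67729 to 103420 CPM in MTP + CR livers, so that the MTP group lay below both others as it did for Aox3. Of these 6, Alb and Cyp2e1 were lower in MTP vs Control, with log2 fold changes of −1.60 and −2.09, and Apoa1, Ttr and Cyp2e1 were higher in MTP + CR vs MTP (1.90, 1.27 and 1.88), calls that were each lost without any 1 of 6 to 10 livers. Alb made up most of the sum. Apob and Hnf4a did not pass the test in either comparison, with log2 fold changes of −0.05 and −0.04 for Apob and −0.05 and 0.13 for Hnf4a. Aox3 had −3.40 and 3.01, and Fmo5 0.26 and 0.22. The 5 neutrophil markers summed to 7.13 to 98.7 CPM in Control, 18.5 to 356 CPM in MTP and 6.92 to 41.0 CPM in MTP + CR livers, with Mpo and Elane higher in MTP than in Control (log2 fold change 3.70 and 3.76), calls each lost without any 1 of 8 livers. Mpo and Elane were lower in MTP + CR than in MTP (−4.33 and −3.79). These calls held in 9 and 7 of 12 fits that left out 1 liver. S100a8, S100a9 and Retnlg were not called. Their log2 fold changes were 1.75, 1.74 and 0.81 in MTP vs Control and −3.02, −2.65 and −2.54 in MTP + CR vs MTP. The 6 endothelial markers summed to 296 to 364 CPM in Control, 266 to 361 CPM in MTP and 109 to 158 CPM in MTP + CR livers, and Kdr, an endothelial receptor, was lower in MTP + CR than in both other groups (−1.95 in each). Pecam1 and Clec4g were also called lower in MTP + CR than in MTP (−1.37 and −1.04) and than in Control (−1.05 and −1.26). Vwf was called lower than in MTP only (−0.78), and Stab2 and Lyve1 were not called. Among the calls of Pecam1, Clec4g and Vwf, only that of Pecam1 against MTP was kept without any 1 liver. In bulk tissue, fewer hepatocytes and less RNA of a gene per hepatocyte cannot be told apart, and the part of these markers in the Aox3 and Fmo1 values was not tested. Kupffer cell markers summed to 560 to 907, 379 to 584 and 332 to 701 CPM and stellate cell markers to 340.2 to 406, 318 to 469 and 182 to 338 CPM. Of the Kupffer list, Adgre1 alone was called, lower in MTP + CR than in Control (log2 fold change −1.61), a call kept without any 1 liver. Timd4 was not called (−0.68 in MTP vs Control and 0.24 in MTP + CR vs MTP). Of the stellate list, Dcn alone was called, lower in MTP + CR than in MTP (−1.03). The Dcn call held in 6 of 12 fits that left out 1 liver. The 3 erythroid markers Hbb-bs, Hba-a1 and Alas2 summed to 116 to 545 CPM in Control, 69.5 to 199.9 CPM in MTP and 165 to 459 CPM in MTP + CR livers. None of them was called, and their median log2 fold changes were −1.66 in MTP vs Control and 1.61 in MTP + CR vs MTP. Cholangiocyte markers summed to 7.29 to 39.1, 10.0 to 14.7 and 10.0 to 11.4 CPM, and none was called. Krt19 had log2 fold changes of −1.73 and −0.38, and Krt7 of −0.87 and 0.68, in MTP vs Control and MTP + CR vs MTP. Kidney and adipocyte markers summed to at most 0.134 and 0.257 CPM in any liver.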

How the data were processed

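RNA of 12 livers was sequenced by the authors on an Illumina NovaSeq instrument after SMARTer mRNA library preparation. Strand is not stated. The authors mapped trimmed reads with Hisat2 and counted fragments with Stringtie, whereas the labels name Bowtie 0.12.2 and mm10. The annotation release is not given in the sources used here. The deposited count values are whole fragments per gene, and the deposited FPKM values equal count divided by gene length and library total to within 0.000997 of the implied length, with no TMM factor. Coordinates come from GENCODE vM21.

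Counts were fitted in R 4.3.3 with edgeR 4.0.16 (filterByExpr with count minimum 10 and total minimum 15, TMM, 1 quasi-likelihood fit over 3 groups, Benjamini-Hochberg adjustment over 15197 genes, calls at adjusted p below 0.05 with more than 1.5-fold change). A row of a gene name with several identifiers is its own gene. Exact permutation tests used log2(CPM + 1). Alternatives were DESeq2 1.42.0, limma 3.58.1 (voom with quality weights, and trend on log2(FPKM + 1) or log2(FPKM + 0.1)), RLE, upper-quartile and total-count scaling, 2 filters, 2 fold thresholds, only the 2 groups compared, a replicate block, removal of each library's gene length trend (lowess span 0.3) and each library left out. The script was tested on simulated data. The rule for naming genes took every member, up to 4 called genes of each list by adjusted p (or 2 where none was called) and the 3 genes most correlated with each member. Lung and kidney markers, Apob, Hnf4a, Stab2, Lyve1, S100a8, S100a9, Retnlg, Alas2, Xist and the Y-linked genes were named outside that rule, after their values were seen. The members, lists and tests were chosen with earlier results of these data known. Not every gene of the table is reported here.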

Additional observations from a re-analysis of the deposited data

Results flagged for a closer look

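Over 24 groups of 4 livers, 1 liver lay far from the other 3 in 1 group, and chance gives about 1 in 20. Fmo5 reached 1603.2 CPM in MTP + CR 3, with the gap to the next liver making up 0.8646 of the group's range.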

How the results depend on the processing

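The fall of Aox3 in MTP vs Control kept its direction under all 24 alternatives (log2 fold change −4.27 to −2.96) and its call under 20, and its rise in MTP + CR vs MTP kept its direction (2.64 to 4.01) and its call under 19. The first call was lost with the replicate block (−3.50, adjusted p = 0.0543 by edgeR) and the second with only the 2 groups compared (3.01, adjusted p = 0.0612 by edgeR). With 1 liver left out, values ran from −3.87 to −2.96 and from 2.64 to 3.48. Aox1 in MTP vs Control was called by DESeq2 (−1.27, adjusted p = 0.0394) and ran from −1.59 to −1.08 with 1 liver left out. On scales without TMM factors the fall of Aox1 was smaller and not called. It was −0.78 with total counts, −0.55 on log2(FPKM + 1) and −0.58 on log2(FPKM + 0.1). Fmo1 was called with quality weights in limma-voom (−1.60 and 1.55, adjusted p = 0.0118 and 0.0182) and ran from −1.64 to −0.76 and from 0.81 to 1.69 with 1 liver left out. With total counts, Fmo1 had −0.69 and 0.72, neither called. The causes were not tested.

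The count of the 6 genes called in MTP vs Control moved from 1 to 2 with DESeq2 or quality weights, to 0 with the replicate block, and to 0 to 2 with 1 liver left out. In MTP + CR vs MTP it moved to 2 with quality weights, to 0 with only the 2 groups compared, and to 0 to 2 with 1 liver left out.

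Values near 0 that were not called changed sign. For MTP + CR vs MTP these were Aox1 (−0.35 with total counts, −0.34 on log2(FPKM + 1), −0.41 on log2(FPKM + 0.1)), Fmo5 (−0.26, −0.33 and −0.33 likewise, and −0.12 to 0.38 with 1 liver left out) and Fmo2 (0.11 with the gene length trend removed, −0.27 to 0.094 with 1 liver left out). For MTP + CR vs Control they were Fmo1 (−0.049 with quality weights, −0.10 to 0.16 with 1 liver left out), Fmo2 (−0.029 with total counts, −0.16 to 0.29), Fmo4 (−0.043 to 0.34) and Aox3 (−0.63 to 0.055, above 0 only without Control 3). In MTP vs Control it was Fmo2 (−0.062 to 0.36).

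Genes called over all genes, 820 in MTP vs Control, were 2920 with total counts, 1764 with DESeq2, 2662 with quality weights, 2103 on log2(FPKM + 1), 2417 on log2(FPKM + 0.1), 539 with the replicate block and 244 to 2009 with 1 liver left out. The 1892 of MTP + CR vs MTP were 4529, 3319, 3228, 3376 and 4491 under the same first 5, 1143 with no filter, 320 with only the 2 groups compared and 261 to 4009 with 1 liver left out. The 202 of MTP + CR vs Control were 1158 with DESeq2, 625 with quality weights, 79 on log2(FPKM + 1), 116 with no filter, 105 with only the 2 groups compared, 66 with the replicate block and 63 to 370 with 1 liver left out. Replicate numbers were not treated as pairing livers, since deviations of same-numbered livers correlated at −0.181 to 0.192 over 12 pairs.

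Groups of 4 livers, outbred animals and an unstated strand setting limit what these values can show. A permutation p of 0.0286 is the smallest that 4 against 4 can give. Fmo2 and Fmo4 had 118 to 446 counts a library. Enzyme protein and activity were not analysed here.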
